A study of Homo sapiens with 42 samples.

Results

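Mitochondrially encoded transcripts are the RNAs made from the small circular genome inside mitochondria. They were taken as every row of the gene table whose symbol starts with MT-, a rule that uses no measured value. This gave 37 of 58884 rows, of which 13 were mRNAs, 2 were rRNAs and 22 were tRNAs. All 37 lay on the mitochondrial chromosome of the hg38 assembly, which has 16569 bases.

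RNA was counted in MOLM-13, a line of acute myeloid leukemia cells whose FLT3, a receptor tyrosine kinase, carries an internal tandem duplication (FLT3-ITD). Treatment lasted 12 hours in RPMI, a standard medium, or in hBMSC-CM, an equal mix of RPMI (50%) and medium taken from HS-5, a line of human bone marrow stromal cells. In RPMI they received DMSO (vehicle), quizartinib (AC220, a FLT3 inhibitor) at 3 nM, or quizartinib at 3 nM with everolimus at 10 nM (combo). In hBMSC-CM they received vehicle, quizartinib at 3 nM, everolimus (an inhibitor of mTORC1) at 10 nM alone, or combo. Each of the 7 conditions had 3 libraries of total RNA (input) and 3 of RNA from heavy polysomes, the densest part of a sucrose gradient, which holds messages loaded with many cytosolic ribosomes. All 42 libraries were selected for poly(A) tails. Every group was 1 cell line, and the conditioned medium came from 1 stromal line. RPMI with everolimus alone was not analysed here. The study describes its replicates as biological. The labels do not tie a library to a culture, so p-values measure the spread between these libraries.

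The mitochondrial genome is read from both strands into long precursors that span many genes. Cutting out the tRNAs frees the mRNAs and rRNAs. The 13 mRNAs encode membrane subunits of respiratory complexes I, III and IV and of ATP synthase, and mitochondrial ribosomes inside the organelle translate them. Cytosolic ribosomes, which make up the polysomes of the gradient, do not. The heavy-strand promoter gives 12 of the mRNAs, both rRNAs and 14 tRNAs. The light-strand promoter gives MT-ND6 and 8 tRNAs, which are annotated on the minus strand. Most mitochondrial mRNAs carry short poly(A) tails, whereas MT-ND6 is known to lack one.

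The last 20 bases of the annotated mRNA genes are shown because this end holds the stop codon, which the poly(A) tail completes in some. In 6 of the 13 mRNAs the genome supplies only the first 1 or 2 bases of the stop codon, in capitals below, and the added A residues complete it. The chromosome sequence and gene ends are those of hg38 with GENCODE release 44, and the sense strand is written 5′ to 3′.
MT-ND1 (chrM:4243-4262, plus strand): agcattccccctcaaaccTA
MT-ND2 (chrM:5492-5511, plus strand): ttttatactaataatcttaT
MT-CO3 (chrM:9971-9990, plus strand): catctattgatgagggtctT
MT-ND3 (chrM:10385-10404, plus strand): aggattagactgaaccgaaT
MT-ND4 (chrM:12118-12137, plus strand): cattaccgggttttcctctT
MT-CYB (chrM:15868-15887, plus strand): caaaatactcaaatgggccT
The other 7 mRNAs end with a complete codon. Among them are MT-CO1 and the light-strand message MT-ND6, whose last codons differ from the usual stop codons.
MT-CO1 (chrM:7426-7445, plus strand): ccgtatacataaaatctAGA
MT-ND6 (chrM:14149-14168, minus strand): agattgctcgggggaatAGG

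Some neighbours share bases, and reads there cannot be given to 1 gene. Gene counting with STAR leaves out reads that overlap more than 1 gene, so the shorter partner of each pair loses most. MT-ATP8 and MT-ATP6 share 46 bases and MT-ND4L and MT-ND4 share 7, in capitals, with 10 bases shown on each side. Of the 207 bases of MT-ATP8, 161 belong to no other listed gene.
MT-ATP8/MT-ATP6 (chrM:8517-8582, plus strand): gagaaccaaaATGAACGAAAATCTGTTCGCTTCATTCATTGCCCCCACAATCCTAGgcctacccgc
MT-ND4L/MT-ND4 (chrM:10750-10776, plus strand): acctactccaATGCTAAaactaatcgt

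Of the 37 transcripts, 22 had a mean of at least 1 count and 1 CPM, a count scaled to the library size, over the 42 libraries, and only these entered the tests. They were the 13 mRNAs, both rRNAs and 7 tRNAs (MT-TQ, MT-TM, MT-TA, MT-TY, MT-TS1, MT-TT and MT-TP). Of the 7 tRNAs, 5 are light-strand genes. The other 15 tRNAs never exceeded 100 counts in a library, and 3 of them (MT-TK, MT-TR and MT-TL2) had no count in any. Mature tRNAs are short and carry no poly(A) tail, and reads under 50 bases were removed before counting, so libraries of this kind are not made to measure them. Whether counting used strand is not stated, so RNA from the opposite strand of a gene cannot be told from the gene itself.

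In input, the mRNAs of complex IV headed the order of levels, given as CPM of the library total per kilobase of gene length. The median over 21 input libraries was 7158 CPM per kb for MT-CO3, 6355 for MT-CO2 and 4831 for MT-CO1, the membrane core of cytochrome c oxidase. MT-CO3 was above MT-CO2 in 16 of 21 libraries and MT-CO2 above MT-CO1 in 19, whereas MT-CO1 was above the large rRNA MT-RNR2 (4121 CPM per kb) in all 21. MT-ATP6 followed at 3895 CPM per kb, MT-ND4 at 3702, MT-ND1 at 3623, MT-ND2 at 3292 and MT-CYB at 2136. The order of MT-ATP6 and MT-ND4 held in 11 of 21 libraries, so these 2 were not separated. MT-ND4 was above MT-ND1 in only 3 libraries although its median was higher.

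The small rRNA MT-RNR1 was at 957 CPM per kb, below MT-RNR2. Low levels were found for 3 complex I mRNAs of the heavy strand, at 731 CPM per kb for MT-ND3, 517 for MT-ND5 and 230 for MT-ND4L. MT-ND6, the light-strand complex I mRNA without a tail, was at 214, and MT-ATP8 was at 196. MT-ND6 was above MT-ATP8 in 9 of 21 libraries, so their order is not resolved. The 7 tRNAs lay between 38.5 CPM per kb (MT-TM) and 209 (MT-TS1). Levels of mRNAs, rRNAs and tRNAs are not on 1 scale of abundance in cells, since poly(A) selection treats them differently.

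**Figure D1:**
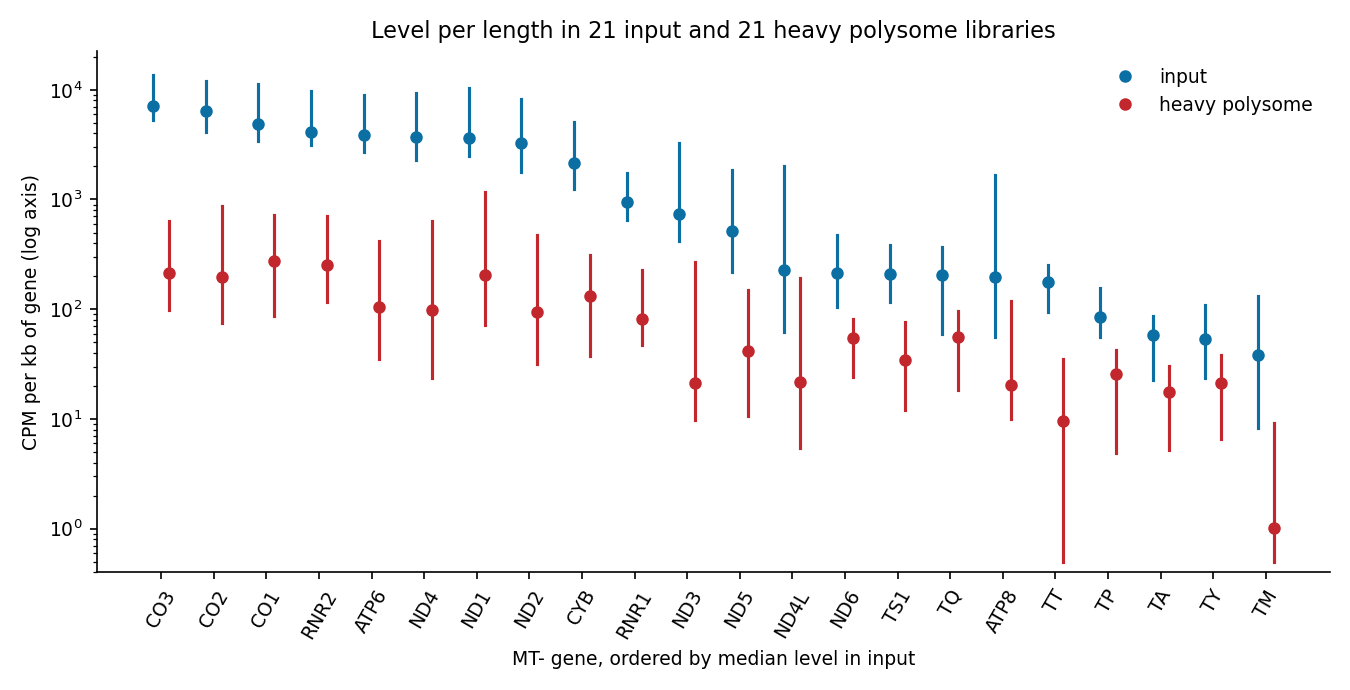
Level of each of the 22 transcripts in CPM per kb of gene length (log axis), in input and in heavy polysome libraries. Dots are medians and lines run from the lowest to the highest of 21 libraries; the polysome minima of MT-TT and MT-TM are 0 and are drawn at the lower edge. Input medians run from 38.5 (MT-TM) to 7158 (MT-CO3), and every polysome median lies below its input median.

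The summed counts of the 37 transcripts made up 3.17 to 10.2% of all counts in input libraries (median 4.25%) and 0.0734 to 0.713% in heavy polysome libraries (median 0.203%). Total counts were 19.4 to 37.2 M per input library and 21.5 to 38.8 M (megacounts) per polysome library. These rest on at least 734716 mitochondrial counts per input library and 22120 per polysome library, so the 95% Wilson interval of a share was at most 0.0108 percentage points to each side in input and 0.00299 in polysome libraries. Such intervals cover counting error only, because the reads carry no molecular identifiers. Among the mitochondrial counts of input, mRNAs held 79.1 to 84.5%, the 2 rRNAs 15.3 to 20.8% and the tRNAs 0.0906 to 0.231%.

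Libraries with replicate number 1 stood apart in 6 of the 7 conditions. Their input share was 7.05 to 10.2%, against 3.17 to 4.90% for number 2 and 3.17 to 5.35% for number 3. In polysome libraries it was 0.282 to 0.713% for number 1, 0.0734 to 0.203% for number 2 and 0.122 to 0.260% for number 3. The ranges of number 1 did not overlap those of the others in either fraction. The everolimus condition did not follow this pattern, with input shares of 3.67, 4.08 and 4.25%.

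The excess of number 1 was uneven among the transcripts. Over the 6 conditions, the ratio of its median TMM-scaled input CPM to the mean of those of numbers 2 and 3 was 11 for MT-ND4L and 9.30 for MT-ATP8, the overlapped short mRNAs. The ratio was 5.02 for MT-TM, 3.93 for MT-ND3, 3.22 for MT-ND5 and 2.46 for MT-ND6. It was smaller for MT-RNR2 (2.16), MT-CO1 (2.13), MT-CO3 (1.57) and MT-RNR1 (1.45). Over all other genes, libraries with the same number deviated together in these 6 conditions, with correlations of 0.278 to 0.652 in input and 0.149 to 0.715 in polysome libraries over 45 pairs each. With everolimus alone the correlations were -0.0569 to 0.0013 and -0.239 to 0.102, so for that condition whatever the numbers stand for and the treatment cannot be told apart. Comparisons among the other 6 conditions are therefore given both over the 3 libraries and within number.

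**Figure D2:**
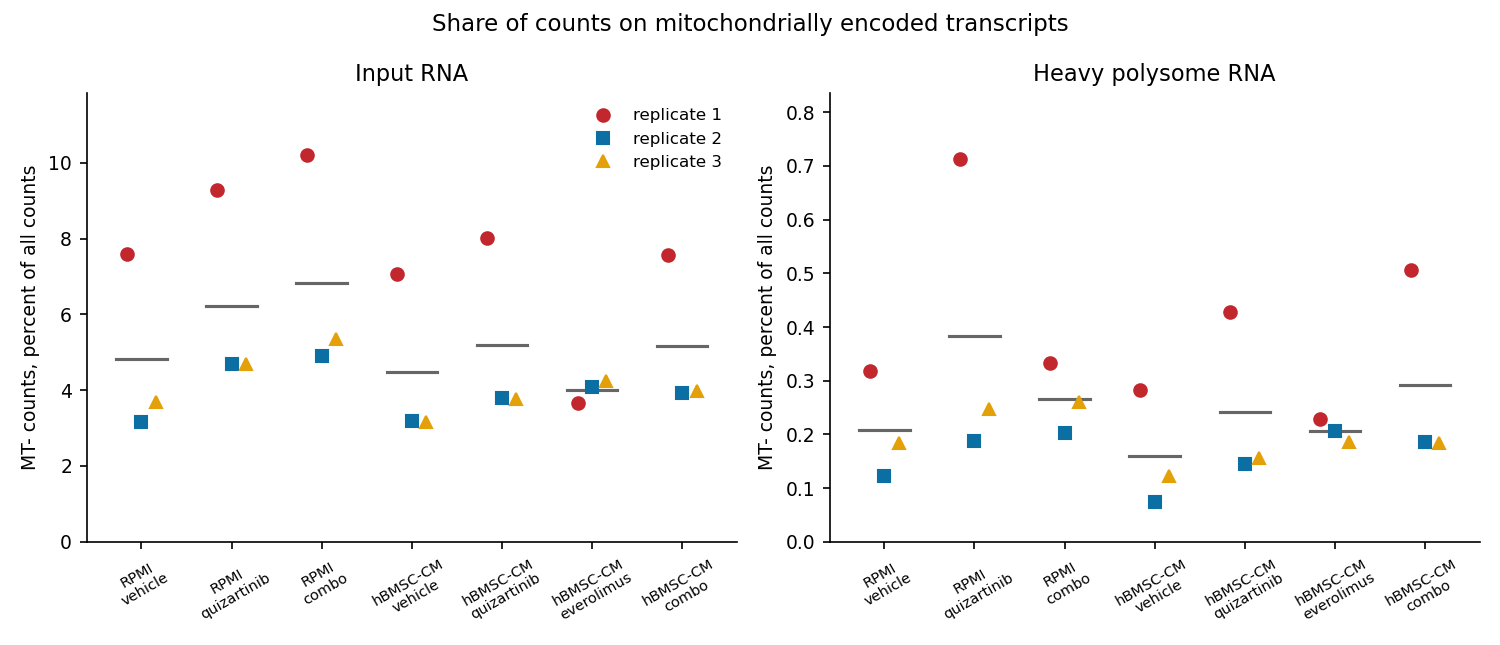
Percent of all counts that fall on the 37 mitochondrially encoded genes, per library, for the 7 conditions in input and in heavy polysomes, with points marked by replicate number and a grey line at each group mean. Number 1 is highest in 6 conditions, at 7.05 to 10.2% of input; the everolimus libraries lie between 3.67 and 4.25%.

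The first question was what FLT3 inhibition did to these transcripts in RPMI. The share of input counts was 7.59, 3.17 and 3.68% with vehicle (replicates 1 to 3) and 9.27, 4.70 and 4.70% with quizartinib. The groups overlapped, but the quizartinib library was higher within each number, by 1.22, 1.48 and 1.28-fold. The ratio of the geometric means was 1.32, with p = 0.5 by the two-sided exact permutation test and 0.84 after adjustment over 7 comparisons, and the ratios below are of the same kind. With 3 against 3 this test cannot go below 0.1. In bulk RNA such a share cannot tell more mitochondrial RNA per cell from less of other RNA.

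Gene by gene, edgeR called 0 of the 22 transcripts between quizartinib and vehicle in RPMI, beside 34.6% of all 12939 genes tested. At an unadjusted p under 0.05 it found 0 of the 22 and 5567 of all genes, and DESeq2 and limma voom also called 0. The point estimates were above 0 for 20 of 22, with a median of 0.26 on the log2 scale beside 0.08 for all genes. Standard errors were large without regard to the numbers, at 0.41 for MT-CYB, for example, against 0.19 once the number was a term of the fit. Without number 1 in every condition, 14 of the 21 transcripts then tested had estimates above 0 and their median was 0.21. Leaving out only the quizartinib library of number 1 turned the median to -0.15, and leaving out the vehicle library of number 1 raised it to 0.77.

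In a fit with the replicate number as a block in each fraction and without the everolimus condition, 4 of the 22 rose and 1 fell with quizartinib in RPMI, beside 54.7% of all 12943 genes. This fit was chosen after the data were seen. The 4 that rose were MT-CYB, MT-CO3, MT-ATP6 and MT-RNR2, and the 1 that fell was MT-ND6. The planned form of this block, with the everolimus condition kept, called only MT-CYB (edgeR adjusted p = 0.032) and MT-ND6 (edgeR adjusted p = 0.019). A planned block over both fractions together called only MT-CYB (edgeR adjusted p = 0.044). Neither planned block called MT-CO3, MT-ATP6 or MT-RNR2.

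MT-CYB, the mitochondrially encoded subunit of complex III, had 3261, 1512 and 1678 TMM-scaled CPM with vehicle and 4615, 2648 and 2359 with quizartinib. The groups overlapped, and quizartinib was higher within every number. The log2 change was 0.68 (SE 0.19, edgeR adjusted p = 0.0038) with the block and 0.58 (adjusted p = 0.29) without it. The call held in 5 of 6 fits that left out 1 library pair and was lost without vehicle number 2.

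MT-CO3, a core subunit of complex IV, had 6843, 3756 and 3964 CPM with vehicle and 8588, 5150 and 5653 with quizartinib, higher within every number. Its log2 change was 0.51 (SE 0.16, edgeR adjusted p = 0.0074) with the block and 0.41 (adjusted p = 0.49) without. The call was lost without quizartinib number 1, vehicle number 2 or vehicle number 3.

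MT-RNR2, the large rRNA of the mitochondrial ribosome, had 10101, 4656 and 4941 CPM with vehicle and 12843, 6525 and 5443 with quizartinib. Its log2 change was 0.40 (SE 0.14, edgeR adjusted p = 0.018) with the block and 0.33 (adjusted p = 0.59) without. MT-ATP6, a membrane subunit of ATP synthase, had 4229, 1643 and 1984 CPM with vehicle and 5092, 2277 and 2622 with quizartinib. Its log2 change was 0.46 (SE 0.18, edgeR adjusted p = 0.033) with the block and 0.35 (adjusted p = 0.70) without. Both were higher within every number, but these 2 calls were fragile. MT-RNR2 kept its call in 2 of 6 fits with 1 library pair left out (lost without number 1 or 2 of either group), and MT-ATP6 in 0 of 6.

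MT-ND6, the light-strand complex I mRNA, moved the other way. It had 233, 99.7 and 159 CPM with vehicle and 186, 79.7 and 66.4 with quizartinib, lower within every number while the groups overlapped. Its log2 change was -0.60 (SE 0.24, edgeR adjusted p = 0.032) with the block and -0.57 (adjusted p = 0.34) without. The call was lost without quizartinib number 2, quizartinib number 3 or vehicle number 3. Over these 6 fits the log2 change was -0.85 to -0.32.

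**Figure D3:**
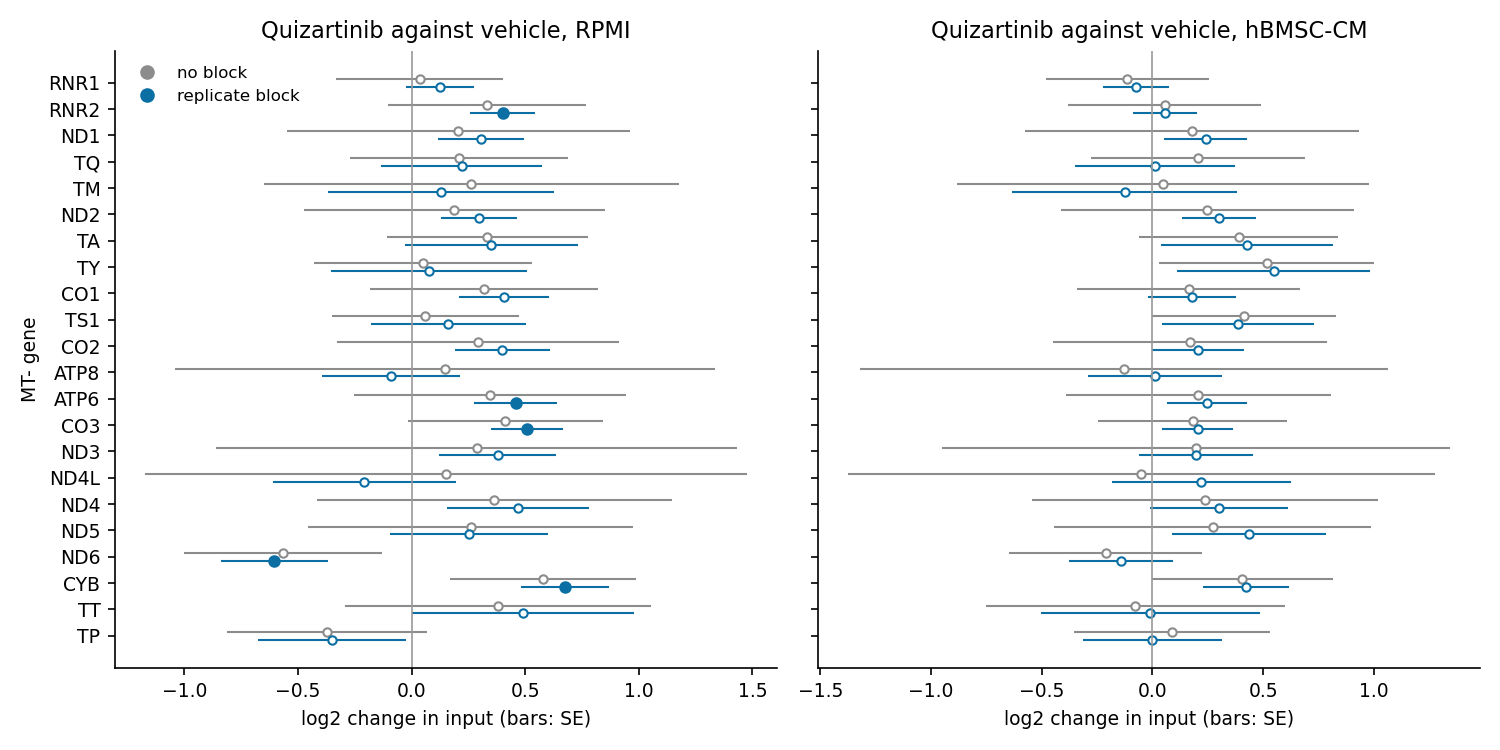
Log2 change of each of the 22 transcripts in input, quizartinib against vehicle, in RPMI and in hBMSC-CM, with bars of 1 standard error, without a block (grey) and with the replicate number as a block (blue). Filled points have an edgeR adjusted p under 0.05: 5 in RPMI and 0 in hBMSC-CM, all with the block, which was fitted without the everolimus condition.

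In hBMSC-CM the quizartinib comparison gave no call, and the estimates of 17 of the 22 transcripts had the sign they had in RPMI. The share of input counts was 7.05, 3.19 and 3.17% with vehicle and 8.02, 3.79 and 3.78% with quizartinib. It was higher within every number, by 1.14, 1.19 and 1.19-fold, and the groups overlapped (ratio 1.17, exact permutation p = 0.5). Of the 22 transcripts, edgeR called 0, beside 12.3% of all genes. It found 0 of the 22 and 3436 of all genes at an unadjusted p under 0.05, and DESeq2 and limma voom called 0 as well. Estimates were above 0 for 17 of 22, with a median log2 change of 0.18 beside 0.01 for all genes. Without number 1 in every condition the median was 0.13, and without the quizartinib library of number 1 alone it was -0.35.

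With the block, too, 0 of 22 were called in hBMSC-CM. MT-CYB had 2623, 1460 and 1356 CPM with vehicle and 3594, 1897 and 1716 with quizartinib, and its log2 change was 0.42 (SE 0.19, edgeR adjusted p = 0.089 with the block). MT-ND6 had 202, 80.7 and 52.0 CPM with vehicle and 167, 59.0 and 62.5 with quizartinib, lower within 2 of the 3 numbers. The difference between media in the quizartinib effect was tested directly. It was called for 0 of 22 transcripts by edgeR, DESeq2 and limma voom, beside 1.96% of all genes by edgeR, and 0 of the 22 and 1293 of all genes had an unadjusted p under 0.05. The 5 calls in RPMI and 0 in hBMSC-CM therefore do not show that the media differed.

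Markers of other cells were looked at beside these changes. The leukemic markers PTPRC, CD33, SPI1, FLT3 and MPO all passed the filter. Of 12 stromal markers, 4 to 6 were at 0 in every library of a group, and COL3A1 and LUM were at 0 in all 42. Their summed input level was 2.74 to 7.64 CPM with vehicle and 14.2 to 47.2 CPM with quizartinib in RPMI, and 2.99 to 8.44 and 12.3 to 30.7 CPM in hBMSC-CM. It was 12.3 to 40.6 CPM with combo in RPMI, 11.3 to 33.7 CPM with combo in hBMSC-CM and 5.20 to 7.71 CPM with everolimus. COL1A1, a collagen gene, gave most of the higher sums. The part of these transcripts in the results was not tested.

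The mitochondrial share of input was also compared between the media. Under vehicle, the input share in hBMSC-CM was 0.930 of that in RPMI and lower within 2 of 3 numbers (exact permutation p = 0.6). Under quizartinib it was 0.824 of that in RPMI and lower within every number, at 0.865, 0.806 and 0.803 of RPMI (exact permutation p = 0.5). edgeR called 0 of 22 under vehicle, beside 1.51% of all genes, and 0 of 22 under quizartinib, beside 8.16%. At an unadjusted p under 0.05 it found 0 of the 22 in either, with 970 and 2362 of all genes, and DESeq2 and limma voom called 0. Estimates were below 0 for 21 of 22 transcripts in each, with medians of -0.36 under vehicle and -0.32 under quizartinib. Leaving out the RPMI library of number 1 turned these medians to 0.23 and 0.18. Without number 1 in all conditions they were -0.27 and -0.36.

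Over the 3 libraries no transcript was called between media. MT-TQ, a light-strand tRNA gene, was called with the block under quizartinib, and without a block when hBMSC-CM number 1 or number 1 of every condition was left out. Under quizartinib it had 22.8, 18.6 and 11.5 CPM in RPMI and 23.3, 4.36 and 3.72 CPM in hBMSC-CM. Numbers 2 and 3 were lower in hBMSC-CM and number 1 was not. Its log2 difference was -1.13 (SE 0.36, edgeR adjusted p = 0.022), as 1 of 22 transcripts beside 11.3% of all 12943 genes that were called lower, and -0.75 (adjusted p = 0.46) without the block. The call was lost without RPMI number 2, hBMSC-CM number 2 or hBMSC-CM number 3.

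Adding everolimus to quizartinib gave no call in either medium. In RPMI the input share with combo was 10.2, 4.90 and 5.35%, higher than with quizartinib within every number (ratio 1.09). In hBMSC-CM it was 7.57, 3.93 and 3.98%, and the ratio was 1.01 with 2 of 3 numbers higher. edgeR called 0 of 22 transcripts in RPMI, beside 0.00773% of all genes, and 0 of 22 in hBMSC-CM, beside 0.24%. It found 0 of the 22 at an unadjusted p under 0.05 in either medium, with 172 and 789 of all genes, and the other tools called 0. The median log2 change was 0.09 in RPMI and 0.00 in hBMSC-CM. With 1 library left out it ran from -0.44 to 0.60 in RPMI and from -0.41 to 0.53 in hBMSC-CM. The direction of these medians was therefore not resolved.

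The libraries with everolimus alone lacked the replicate-number pattern of the other conditions, so treatment and that difference cannot be told apart. Their input shares of 3.67, 4.08 and 4.25% stood against 7.05, 3.19 and 3.17% with vehicle. The groups overlapped (ratio 0.964, exact permutation p = 1). edgeR called 0 of 22, beside 0.41% of all genes, and the other tools called 0. At an unadjusted p under 0.05 there was 1 of 22 and 1123 of all genes. It was the light-strand tRNA MT-TY, whose log2 change was 1.20 (SE 0.49, edgeR adjusted p = 0.40). The median log2 change of -0.11 became 0.56 without number 1 in every condition, and 0.11 with limma voom. The rRNA part of the mitochondrial counts was 17.2, 15.5 and 15.3% with everolimus and 17.7, 20.6 and 18.3% with vehicle, without overlap. Its exact permutation p was 0.1, the smallest possible, and 0.35 after adjustment over 7 comparisons. With quizartinib in hBMSC-CM the rRNA part was 16.8, 17.4 and 16.2%, also without overlap with vehicle, at the same p and adjusted p.

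The heavy polysome libraries held a small residue of these transcripts. The mitochondrial share there was 2.30 to 7.69% of the share in the input library of the same condition and number (median 4.38% over 21 pairs), that is 13 to 43.5-fold lower. The fold was smallest for quizartinib number 1 in RPMI and largest for vehicle number 2 in hBMSC-CM. Input and polysome libraries were paired by condition and number. The deviations of the 2 libraries of a pair correlated weakly, at -0.0468 to 0.297 (median 0.181) over 18 pairs. For the 3 everolimus pairs the correlations were -0.019 to 0.015, so the pairing of that condition rests on the labels alone.

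Single transcripts were nearly all depleted in every condition. Counting only falls, edgeR called 21 of 22 lower in heavy polysomes than in input with vehicle in RPMI, beside 33.9% of all genes. With quizartinib in RPMI it called 20, beside 26.7%, and with combo 20, beside 27.6%. In hBMSC-CM it called 21 with vehicle, beside 34.0%, and 20 with quizartinib, beside 28.9%. It called all 22 with everolimus, beside 30.7%, and with combo, beside 30.1%. MT-TY was not called in 5 conditions, MT-TA in 2 and MT-ND4L in 1.

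The median log2 difference between heavy polysome and input was -3.66, -3.39 and -4.28 in RPMI with vehicle, quizartinib and combo. In hBMSC-CM it was -3.93, -3.84, -3.51 and -3.46 with vehicle, quizartinib, everolimus and combo. These are 10.5 to 19.4-fold falls, while the medians over all genes were -0.11 to 0.06. In each condition 16 or 17 of the 22 were among the 5% of genes with the lowest values. MT-CO3, for example, had 6843, 3756 and 3964 CPM in vehicle RPMI input and 428, 219 and 196 CPM in the heavy polysomes, a log2 difference of -4.11 (SE 0.48, edgeR adjusted p = 2.21e-08). No library of the polysome group came near the input group. Without number 1 in every condition, 17 to 20 of 21 were called in each condition, and the medians were -3.39 to -3.84.

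Nuclear-encoded RNAs that are not translated were low in heavy polysomes too. On the scale of the library total, which is not that of the edgeR values above, their median log2 ratio of heavy polysome to input CPM was -3.62 for MALAT1 and -4.63 for NEAT1, long nuclear RNAs. It was -2.70 for KCNQ1OT1, and -5.56 and -5.99 for RN7SL1 and RN7SL2, RNA parts of the signal recognition particle. The nuclear and small RNAs RN7SK, RMRP and RPPH1 were at 0 in all libraries.

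The residue was not a scaled copy of the input. Each transcript's part of the mitochondrial counts was compared between the polysome and input library of a pair, for the 21 transcripts with a mean polysome count of at least 20, which leaves out MT-TM. By a two-sided sign-flip permutation test over 21 pairs, 18 of the 21 transcripts had an adjusted p under 0.05. The smallest p these 100000 permutations can give is 1e-05.

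All 6 light-strand transcripts tested took a larger part of the residue. MT-ND6 made up 0.238% of mitochondrial counts in input and 1.33% in heavy polysomes (medians), a mean log2 difference of 2.29 ± 0.76 (SD, 21 pairs), higher in 21 of 21. The light-strand tRNAs were higher in 21 of 21 as well, by 1.72 for MT-TS1, 2.37 for MT-TP, 2.55 for MT-TQ, 2.65 for MT-TA and 3.12 for MT-TY on the log2 scale. The permutation p was 1e-05, the smallest possible, for each of these 6. The median of the light-strand transcripts lay above every heavy-strand mRNA in 21 of 21 pairs, and all 6 did in 16 of 21. Of the 6, 5 are tRNAs with few counts (as few as 10 in a polysome library for MT-TP), so strand and kind of RNA are not separated. Pooled over all libraries, heavy-strand tRNAs with counts in both fractions ran from -0.43 (MT-TM) to 1.59 (MT-TF). Those of the light strand ran from 1.75 (MT-TE) to 3.09 (MT-TY). MT-ND6 lay above every other mRNA in 19 of 21. Light-strand RNA also includes the antisense copies of heavy-strand genes, and strand could not be used here.

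In CPM, MT-ND6 fell from 233, 99.7 and 159 in vehicle RPMI input to 29.3, 29.0 and 43.0 in the heavy polysomes, while MT-CYB fell from 3261, 1512 and 1678 to 223, 149 and 155. The log2 differences were -2.28 for MT-ND6 and -3.61 for MT-CYB in the edgeR fit. Over the 7 conditions the median log2 difference was -1.87 to -1.42 for the light-strand transcripts and -4.44 to -3.59 for those of the heavy strand.

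Among heavy-strand mRNAs, a set of 4 took a smaller part of the residue in 21 of 21 pairs. These were MT-ND4 (mean log2 difference -0.78), MT-ATP6 (-0.77), MT-ND2 (-0.53) and MT-CO3 (-0.49), each with a permutation p of 1e-05. MT-CO3 fell from 12.9 to 8.64% of mitochondrial counts and MT-ND4 from 12.1 to 7.35% (medians). MT-CO2 was lower in 16 of 21 pairs (-0.26, permutation p = 0.013), and the other 5 pairs were all of number 1.

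MT-ND1, a core subunit of complex I, was higher in 21 of 21 pairs (0.27). The short mRNAs MT-ATP8 and MT-ND4L were higher in 17 pairs each (0.77 and 0.64), MT-ND5 in 15 (0.43) and MT-CYB in 16 (0.24). The pairs that were lower were mostly of number 1, namely 4 of 4 for MT-ATP8 and for MT-ND4L, 5 of 6 for MT-ND5 and 4 of 5 for MT-CYB. The sign-flip test treats the 21 pairs as independent, although libraries of the same number deviated together, so its p-values may be too small. MT-CO1 (0.07, permutation p = 0.17), MT-ND3 (-0.13, p = 0.34) and MT-TT (-0.15, p = 0.67) did not pass the test. Over the 13 mRNAs, those with a higher input level per kb had a lower change of part (Spearman's rho -0.68, and -0.59 over the 12 heavy-strand mRNAs). This is a description across genes that share libraries. The input level also enters the change of part, with the opposite sign. A bias of single genes in input can therefore lower rho by itself.

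**Figure D4:**
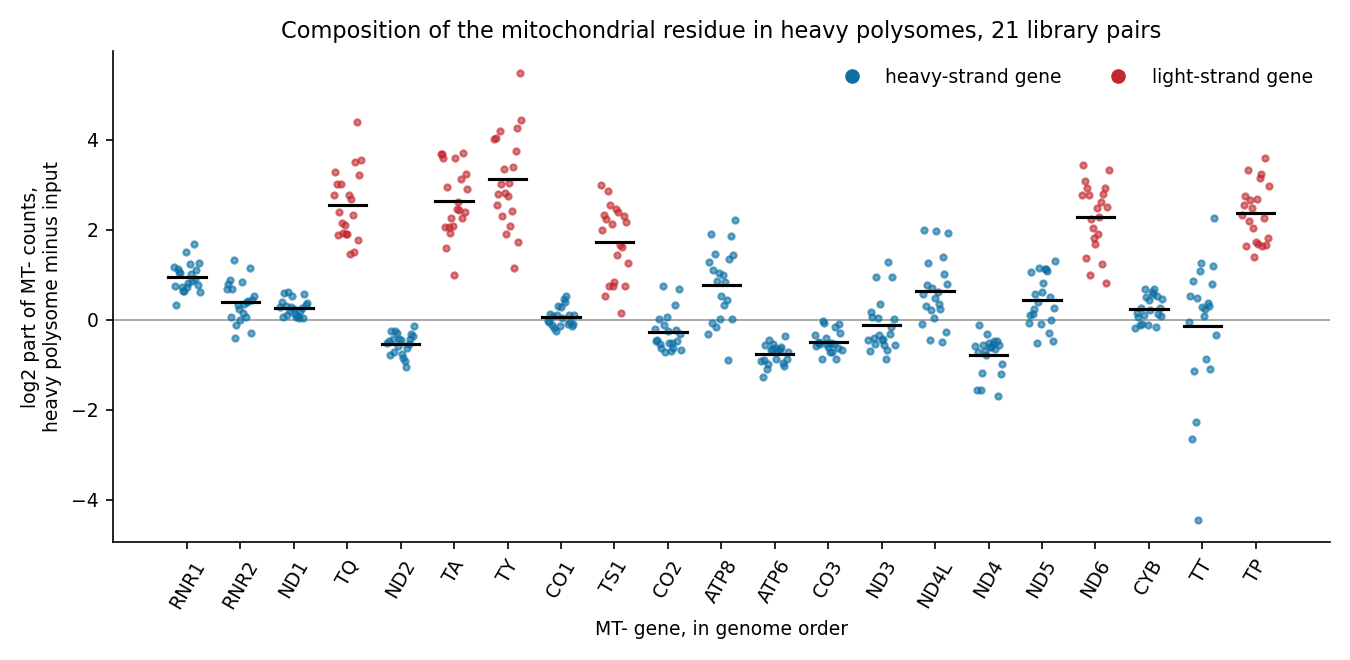
Log2 of each transcript's part of the mitochondrial counts in heavy polysomes over its part in the input library of the same condition and number, for 21 transcripts. Dots are the 21 pairs and black lines their means. The 6 light-strand transcripts have means of 1.72 to 3.12; the means of heavy-strand transcripts run from -0.78 (MT-ND4) to 0.95 (MT-RNR1).

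Both rRNAs took a larger part of the residue. MT-RNR1 rose from 2.04 to 3.96% of mitochondrial counts (medians), higher in 21 of 21 pairs, and MT-RNR2 from 15.2 to 20.2%, higher in 18 of 21 (permutation p = 0.00046). The log2 differences were 0.95 ± 0.32 and 0.40 ± 0.45 (SD, 21 pairs). Over the vehicle conditions alone the mean for MT-RNR2 was 0.08.

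Changes of the residue between conditions were examined next. The polysome share was 0.319, 0.122 and 0.183% with vehicle in RPMI and 0.713, 0.187 and 0.248% with quizartinib. It was higher within every number, by 2.24, 1.54 and 1.35-fold, and the groups overlapped (ratio 1.67, exact permutation p = 0.4, adjusted 0.58). In hBMSC-CM it was 0.282, 0.0734 and 0.122% with vehicle and 0.427, 0.144 and 0.156% with quizartinib, also higher within every number (ratio 1.56). Set against the input share of the same pair, the residue was higher with quizartinib by a ratio of 1.26 in RPMI and 1.33 in hBMSC-CM (exact permutation p = 0.3 for each). Within number the RPMI ratios were 1.83, 1.04 and 1.06, so that number 1 gave most of the difference. The paper reports that quizartinib lowered RNA yield more in heavy polysomes than in input. A share of polysome counts cannot tell more mitochondrial RNA from less of other RNA.

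The everolimus polysome shares were 0.229, 0.206 and 0.186%. Their residue relative to input was 1.57 times that of vehicle in hBMSC-CM, without overlap (exact permutation p = 0.1, the smallest possible, and 0.42 after adjustment). Here too, treatment cannot be told apart from the missing replicate-number pattern, and the pairs of this condition rest on the labels alone. With combo the polysome share was 0.333, 0.203 and 0.260% in RPMI and 0.506, 0.185 and 0.185% in hBMSC-CM. It was 0.809 of the quizartinib share in RPMI, where numbers 2 and 3 were slightly higher (1.08 and 1.05) and number 1 was lower (0.467), and 1.22 times it in hBMSC-CM.

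Without a block, polysome changes relative to input were called for few genes in any comparison. For quizartinib in RPMI, edgeR called 0 of the 22 transcripts, beside 1.55% of all genes. It called 0 of 22, beside 0.0%, for quizartinib in hBMSC-CM, for the medium under vehicle and under quizartinib, for combo in RPMI and in hBMSC-CM, and for everolimus. DESeq2 and limma voom called 0 of 22 in all of these. At an unadjusted p under 0.05 edgeR found 0 of the 22 in each and 93 to 2014 of all genes. For quizartinib in RPMI the median over the 22 was 0.29 beside 0.15 for all genes, and without number 1 in every condition it was -0.18. For combo in RPMI it was -0.76, and 0.11 without number 1.

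With the block, MT-RNR2 was called higher in heavy polysomes relative to input with quizartinib in RPMI, 1 of 22 beside 4.91% of all 12943 genes that were called higher. It had 486, 262 and 405 CPM in the vehicle polysome libraries and 1262, 594 and 823 in those with quizartinib, so the groups did not overlap. The log2 change relative to input was 0.68 (SE 0.20, edgeR adjusted p = 0.023) with the block and 0.88 (adjusted p = 0.54) without it, and it was lost without quizartinib number 3. The 2 rRNAs together made up 13.5, 19.2 and 21.7% of mitochondrial counts in these vehicle libraries and 18.4, 30.6 and 38.5% with quizartinib. This was 1.37, 1.60 and 1.77-fold within number (ratio 1.57, exact permutation p = 0.3, adjusted 0.84). With combo in RPMI the rRNA part was 27.2, 33.4 and 29.3%.

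The nuclear genes that make, process and translate these transcripts, and the nuclear subunits that join their products, were counted in 9 lists of 154 tested genes. These lists were chosen with earlier results of these data known. Their counts beside the share of all genes are therefore a description and not an independent test. With quizartinib in RPMI, 57 of the 154 fell and 1 rose in input without a block, beside 18.0% of all genes that fell and 16.6% that rose. In the same comparison 0 of the 22 mitochondrially encoded transcripts were called. Their median log2 change ran from -0.15 to 0.77 with 1 library left out. That count therefore does not show that they were unchanged. Without number 1 in every condition 41 of the 154 were called, and 43 to 54 with 1 library left out. With the block 86 fell and 8 rose, beside 23.8% and 31.0% of all genes, and 77 to 98 were called with 1 library left out.

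Among 10 genes of mitochondrial transcription, 6 fell (median log2 change -0.89, beside 0.08 over all genes). MRPL12, a mitochondrial ribosomal protein that also binds the mitochondrial RNA polymerase, went from 24.6, 27.0 and 29.1 CPM to 4.0, 5.16 and 8.48 (log2 change -2.19). Of 21 genes of RNA processing and stability 11 fell (median -0.76). PNPT1, the mitochondrial polynucleotide phosphorylase, went from 70.1, 65.9 and 70.1 CPM to 16.5, 13.5 and 19.7 (-2.05). Every quizartinib library lay far below the vehicle libraries for both genes.

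Of 18 genes that modify rRNA or assemble the mitochondrial ribosome, 11 fell (median -0.56). MRM1, an rRNA methyltransferase, went from 41.2, 57.3 and 69.8 CPM to 6.94, 9.79 and 13.6 (-2.47). Of 18 genes of translation and membrane insertion 4 fell (median -0.37), the most TIMM21 (-1.83), which takes part in protein import and complex assembly. Of 16 genes of mitochondrial DNA maintenance 7 fell (median -0.16). TWNK, the helicase of mitochondrial DNA replication, went from 41.4, 48.0 and 44.3 CPM to 6.77, 7.46 and 5.26 (-2.78).

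The nuclear subunits of the respiratory chain and ATP synthase were counted by complex. Of 34 complex I genes 8 fell and 1 rose (median -0.46). NDUFAB1, the acyl carrier protein, fell by 1.43 on the log2 scale. NDUFC1 rose by 0.69, a call that was lost with any of the 6 libraries left out. In complex III 4 of 9 fell (median -0.62; CYC1, cytochrome c1, -1.08), in complex IV 3 of 11 (median -0.40; COX5A -0.95) and in ATP synthase 3 of 17 (median -0.33; ATP5MC1, a c-ring subunit, -2.47). The last count is near the 18.0% of all genes that fell, and those of complex I and of translation and membrane insertion are not far above it. Each fall named here for RPMI was kept in all 6 fits with 1 library left out.

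**Figure D5:**
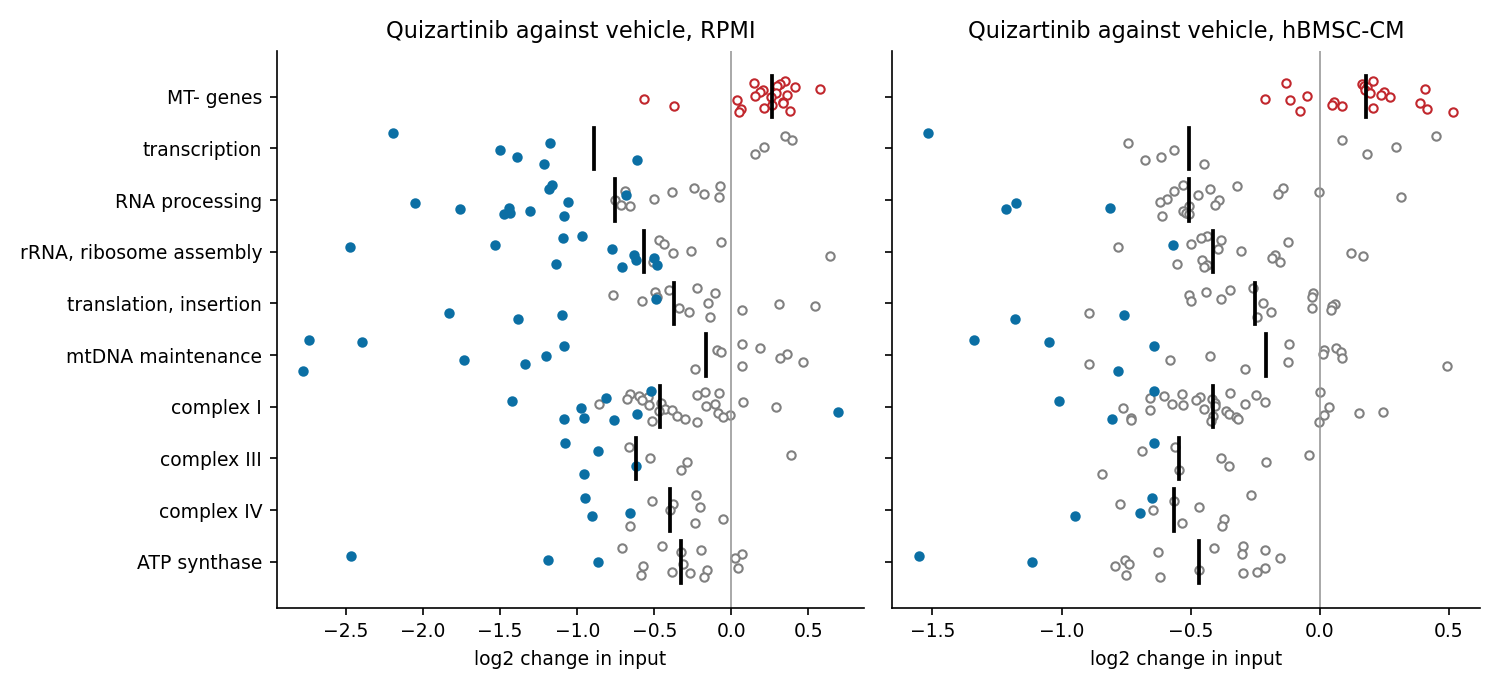
Log2 change in input, quizartinib against vehicle, in RPMI and in hBMSC-CM, for the genes of 9 nuclear lists and the mitochondrially encoded transcripts (red). Each point is a gene, filled blue points were called by edgeR without a block and black bars are medians. The lists were chosen with earlier results of these data known. The medians in RPMI run from -0.89 (transcription) to -0.16 (mitochondrial DNA maintenance), against 0.26 for the mitochondrially encoded transcripts.

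In hBMSC-CM, without a block, 20 of the 154 fell with quizartinib and 0 rose, beside 6.84% of all genes that fell and 5.46% that rose. With the block 74 fell and 1 rose, beside 16.6% and 18.3%, and 43 to 79 were called with 1 library left out. The count without a block rested on a few libraries, since 4 were called without number 1 in every condition, 7 without quizartinib number 2 and 26 without vehicle number 2. ATP5MC1 went from 76.5, 88.9 and 155 CPM to 25.7, 33.1 and 50.5 (log2 change -1.55), and ATAD3A, a membrane ATPase of the nucleoid, fell by 1.34. Both were kept with any 1 library left out, though ATAD3A was lost without number 1 in every condition. NDUFAB1 fell by 1.01 (lost without vehicle number 3) and MRPL12 by 1.52 (lost without quizartinib number 1 or vehicle number 3). SLIRP, an RNA-binding partner of LRPPRC that stabilizes mitochondrial mRNAs, fell by 1.22 (lost without quizartinib number 2 or vehicle number 3). Falls of UQCC2 (1.18), COX7B (0.95), CYC1 (0.64) and MPV17L2 (0.57) were lost in 3 or 4 of the 6 fits.

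Between media under quizartinib, without a block, 5 of the 154 were higher in hBMSC-CM and 0 lower, beside 6.11 and 2.05% of all genes. TWNK had 19.9, 21.1 and 20.5 CPM in hBMSC-CM and 6.77, 7.46 and 5.26 in RPMI (log2 difference 1.66), kept with any 1 library left out. MRM1 was higher by 1.24, lost in 3 of 6 fits. With the block 19 were higher and 4 lower, beside 11.8 and 11.3% of all genes, and 11 to 18 were called with 1 library left out. POLRMT, the mitochondrial RNA polymerase, was higher by 0.70 (edgeR adjusted p = 0.00011) and PNPT1 by 0.74 (adjusted p = 0.0039), while LRPPRC was lower (-0.49, adjusted p = 0.040). Under vehicle 0 were called without a block, and with it 1 was higher and 4 lower, beside 4.62 and 2.4% of all genes.

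The quizartinib change itself was compared between media in an interaction term. Without a block 4 of the 154 had a higher log2 change in hBMSC-CM and 0 a lower one, beside 1.79 and 0.178% of all genes. These were TWNK (difference 1.99), MRM1 (1.69), ATAD3A (1.40) and MPV17L2 (0.97), which are named here after their values were seen. Only TWNK was kept with any 1 library left out, and none of the 4 was called without number 1 in every condition. With the block 16 were higher and 0 lower, beside 6.17 and 3.69%, and 8 to 18 were called with 1 library left out.

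In polysomes relative to input without a block, COX7C, a small subunit of complex IV, was the 1 gene of the 154 called, with quizartinib in RPMI, beside 1.28% of all genes that were lower and 0.278% that were higher. Its log2 change was -1.12 (edgeR adjusted p = 0.038), and it was lost in 5 of 6 fits with 1 library pair left out. With the block 44 were lower and 3 higher, beside 9.06 and 4.91% of all genes. The lower ones were 13 of 34 complex I genes, 4 of 9 of complex III, 9 of 11 of complex IV and 10 of 17 of ATP synthase, with the other 8 spread over 3 lists. ATP5MC2, a c-ring subunit, had a log2 change of -1.33 (edgeR adjusted p = 1e-05) and UQCRH, a subunit of complex III, one of -1.13 (adjusted p = 0.0001), both with the block. The total of 47 was 12 without vehicle number 3 and at most 44 with another library pair left out. Between media under quizartinib the block called 3 higher in polysomes relative to input (UQCRH, UQCRB and ATP5F1D) and 0 lower, beside 1.03 and 0.0155% of all genes, and at most 1 with a library pair left out.

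With combo against quizartinib in hBMSC-CM, 0 of the 154 were called without a block. With it 15 fell and 0 rose, beside 3.83 and 0.881% of all genes, among them ATP5MC1 (-1.01), ATAD3A (-0.76), PNPT1 (-0.66) and POLRMT (-0.48). With 1 library left out 4 to 14 were called, the fewest without combo number 1. Without a block 0 of the 154 were called in 10 of the 15 comparisons, and with it in 5 of 13.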

How the data were processed

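Counts of 42 RNA-seq libraries were analysed, 3 in each of 14 groups (7 conditions, input and heavy polysome). The authors clarified detergent lysates made with cycloheximide, took heavy polysomes from sucrose gradients, made poly(A)-selected paired-end libraries, trimmed them with BBDuk, removed reads under 50 bases, aligned to hg38 (Ensembl release 96) and counted reads per gene with STAR 2.6.0a. They deposited raw counts, neither normalized nor filtered. Strand use in counting is not given in the sources used here.

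Summing rows under 1 name (150 names) gave 57353 names. The filter required both a mean count and a mean CPM of 1 or more, and kept 12939 genes and 99.8% of counts. All 42 libraries entered 1 edgeR 4.0.16 quasi-likelihood fit (R 4.3.3) with a mean per group (14), TMM scaling and no block term (common biological coefficient of variation 0.279). A gene was called where its p, adjusted over all genes by Benjamini-Hochberg, was under 0.05. Polysome comparisons used the polysome change minus the input change. CPM are TMM-scaled, except shares, levels per kb, markers and untranslated RNAs, which are per library total. Shares were compared with two-sided exact permutation tests, and parts of the residue with sign-flip permutations (SciPy 1.17.1). The calls of the input comparison of quizartinib with vehicle in RPMI were tested on simulated data before use. Those data held no effect of the replicate number, and polysome comparisons were not tested on them.

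Same-numbered libraries deviated together in 6 conditions, so the fit with the replicate number as a block is given beside the main one where it changes a call of a mitochondrially encoded transcript or moves a count of called nuclear genes by over 1.5 times. The block rests on shared replicate numbers in the labels and this check. Pairs of input and polysome libraries rest mainly on the labels. Their deviations correlated weakly in these conditions (-0.0468 to 0.297), and with everolimus at -0.019 to 0.015. The members and the lists of nuclear genes were chosen with earlier results of these data known. Every tested member was to be described, and in each list the largest rise and fall among called genes of at least 10 CPM whose replicates do not overlap. Alternatives were DESeq2 1.42.0, limma voom (3.58.1), library size only, scaling without the MT- rows, no filter, the compared groups alone, replicate blocks, other denominators and each library left out. Columns without a sample numbered 0.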

Additional observations from a re-analysis of the deposited data

How the results depend on the processing

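Of the counts of mitochondrially encoded transcripts called, 342 results under an alternative stayed within 1.5 times the main count and 14 did not. With quizartinib in RPMI, where the count was 0 in input, a replicate block gave 1 (MT-CYB), a replicate block within each fraction 2 (MT-CYB and MT-ND6), that block with scaling without the MT- rows 3 (MT-CO3, MT-CYB and MT-ND6), and that block without the everolimus condition 5. The last 2 were chosen after the data were seen. In polysomes relative to input, MT-RNR2 made the count 1 with the block within each fraction, with or without everolimus. Between media under quizartinib, MT-TQ made it 1 under the 3 forms of the block within each fraction and without number 1 in every condition, and 0 to 1 with 1 library left out (1 without hBMSC-CM number 1). With everolimus, MT-RNR1 (log2 change -0.57) made it 1 under the block within each fraction, also with scaling without the MT- rows, and MT-ND5 (1.47 in polysomes relative to input) made it 1 without a filter. Between conditions, the block changed no other call of these transcripts.

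Leaving out 1 library leaves unequal replicate numbers in the groups compared, and the log2 ratios of shares then ran across 0. For the input share they were -0.13 to 0.61 (quizartinib in hBMSC-CM), -0.49 to 0.28 and -0.64 to 0.048 (medium under vehicle and quizartinib), -0.20 to 0.45 and -0.30 to 0.38 (combo in RPMI and hBMSC-CM) and -0.25 to 0.33 (everolimus). For the polysome share they were -0.70 to 0.27 and -0.20 to 0.79 (combo in RPMI and hBMSC-CM). For the rRNA part of input they were -0.11 to 0.033 (quizartinib in RPMI), -0.037 to 0.082 (medium under quizartinib) and -0.0052 to 0.14 (combo in RPMI). For the rRNA part of polysome libraries they were -0.051 to 0.42 (quizartinib in hBMSC-CM), -0.31 to 0.22 (medium under quizartinib), -0.20 to 0.33 and -0.25 to 0.061 (combo in RPMI and hBMSC-CM). Other reversals were small or came without number 1 in every condition: input share with combo in hBMSC-CM, TMM-scaled, -0.019; with everolimus, without number 1, 0.39; polysome share with combo in RPMI, without number 1, 0.090; rRNA part between media under quizartinib, -0.0017 for MT-RNR2 alone and -0.013 without number 1; polysome rRNA part with combo in RPMI, without number 1, -0.13. The other 267 results for shares kept their direction.

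Of single transcripts, MT-RNR2 (-0.13 to 0.79) and MT-ATP6 (-0.095 to 0.88) crossed 0 with quizartinib in RPMI when 1 library was left out of the fit with no block, the lowest without quizartinib number 1. For named nuclear genes 448 results kept their call, 58 lost it and 0 reversed, and the parts of the residue kept theirs in 77 of 90. Depth did not limit the shares, but the 15 tRNAs under the filter were not measurable here. In the test of the difference between media, 4 nuclear genes were called, with 2 under scaling by library size only, 10, 8 and 16 under the 3 forms of the block within each fraction, 0 without number 1 in every condition and 1 to 4 with 1 library left out.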

Other observations

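Of 8620 genes that averaged 10 CPM or more over the 21 input libraries, those whose log2 CPM followed the log2 summed CPM of the mitochondrially encoded transcripts most closely were MTATP6P1 (r = 0.989), MTCO1P12 (0.943), MTND4P12 (0.942), MTRNR2L12 (0.939) and MAPKAP1 (0.938). The first 4 are nuclear copies of mitochondrial genes, and MAPKAP1 encodes a subunit of mTORC2. The 21 libraries share the replicate numbers, and after condition and number were taken out the correlations over the 6 conditions other than everolimus were 0.177, 0.498, 0.467, 0.412 and 0.165. Reads from a mitochondrial transcript and from its nuclear copies cannot be told apart where the sequences match. Of 407 rows of such copies, 325 had no count and 19 passed the filter, and together they held counts equal to 3.00 to 4.04% of the mitochondrial counts in input and 2.18 to 3.22% in heavy polysomes.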
